A study of Mus musculus with 4 samples.

Results

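The 4 mouse Hox clusters were described from lists of accessible chromatin regions (peaks) in 4 single-nucleus ATAC-seq libraries, an assay in which a transposase cuts DNA where chromatin is open. A window was drawn around each cluster from the outermost member gene ends plus 50 kb on each side, on the mm10 build. The windows were chr6:52112417-52310880 for Hoxa, chr11:96144316-96418254 for Hoxb, chr15:102871131-103086856 for Hoxc and chr2:74618225-74815142 for Hoxd, with 10, 10, 9 and 9 member genes. Hoxa genes lie on the minus strand and the genes of the other clusters on the plus strand. Peaks that touched a window numbered 217 of 227878 in the KO day 5 library, 191 of 189571 in the WT day 5 library, 210 of 222257 in the KO day 0 library and 214 of 198860 in the WT day 0 library.

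All libraries came from mouse embryonic stem cells (ESCs) derived from blastocysts, either lacking the paired phosphatase genes Cdc14a and Cdc14b (Cdc14ab KO, here KO) or wild type (WT). Day 5 cells had spent 5 days in N2B27 medium with EGF and FGF2, which drives neural differentiation, and day 0 cells were taken from medium with LIF, which holds ESCs undifferentiated. Cells of both genotypes had been kept on feeder cells, which were removed on gelatin before the assay. Every library is labelled clone 3, and there was 1 library per genotype and day, which leaves every difference unreplicated and without a p-value. The lists give the position of each peak with no score or read count, so the depth of the libraries is unknown, and the share of nuclei in which a region is open cannot be told apart from how open it is in each nucleus.

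Hox genes encode homeodomain transcription factors that give cells their position along the head-to-tail axis. They stand in the order in which they act: low-numbered paralogues sit at the 3' end of a cluster, are switched on earliest and act in the hindbrain and neck, and high-numbered paralogues sit at the 5' end and act in the trunk, limbs and tail. In ESCs the clusters are known as classical Polycomb targets, held silent while poised for activation, and retinoic acid, Wnt and FGF signals open them from the 3' end in differentiating neural tissue. The clusters also hold microRNAs of the miR-10 and miR-196 families, which target Hox messages themselves.

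Of the 38 members, 6 are shown by the 250 bases before their annotated start, because the peaks at or beside those starts differed between libraries (RefSeq, GRCm38.p6, 5' to 3' along the gene). Hoxa2, a hindbrain and branchial arch regulator, was covered here only at day 5, and Hoxd11, a limb and kidney regulator, only at day 0. Hoxa11, Hoxd12 and Hoxd8 lacked peaks within 1 kb of the start in 1 library each, and Hoxd4 had more covered bases there at day 0. Capitals mark matches to motifs named later in the text.
Hoxa2 (chr6:52164832-52165081, minus strand): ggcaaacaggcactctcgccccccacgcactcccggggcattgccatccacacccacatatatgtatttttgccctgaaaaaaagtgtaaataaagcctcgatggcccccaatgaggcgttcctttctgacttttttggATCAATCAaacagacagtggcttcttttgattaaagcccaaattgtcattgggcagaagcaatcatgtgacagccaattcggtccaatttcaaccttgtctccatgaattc
Hoxd4 (chr2:74721728-74721977, plus strand): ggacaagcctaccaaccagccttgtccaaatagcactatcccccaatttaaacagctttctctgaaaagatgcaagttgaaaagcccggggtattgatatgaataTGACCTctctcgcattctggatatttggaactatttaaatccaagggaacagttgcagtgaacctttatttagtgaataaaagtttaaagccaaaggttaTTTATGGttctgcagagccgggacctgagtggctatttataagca
Hoxd8 (chr2:74704365-74704614, plus strand): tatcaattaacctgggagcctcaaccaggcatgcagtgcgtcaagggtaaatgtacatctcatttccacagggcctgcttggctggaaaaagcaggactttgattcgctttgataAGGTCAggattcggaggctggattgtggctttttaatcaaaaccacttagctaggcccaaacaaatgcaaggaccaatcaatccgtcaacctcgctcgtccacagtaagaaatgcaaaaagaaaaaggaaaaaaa
Hoxa11 (chr6:52245811-52246060, minus strand): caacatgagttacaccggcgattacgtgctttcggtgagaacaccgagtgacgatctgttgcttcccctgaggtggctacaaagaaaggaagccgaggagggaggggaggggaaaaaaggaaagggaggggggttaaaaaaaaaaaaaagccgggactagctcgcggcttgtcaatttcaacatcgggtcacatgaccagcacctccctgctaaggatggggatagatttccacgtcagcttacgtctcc
Hoxd11 (chr2:74679308-74679557, plus strand): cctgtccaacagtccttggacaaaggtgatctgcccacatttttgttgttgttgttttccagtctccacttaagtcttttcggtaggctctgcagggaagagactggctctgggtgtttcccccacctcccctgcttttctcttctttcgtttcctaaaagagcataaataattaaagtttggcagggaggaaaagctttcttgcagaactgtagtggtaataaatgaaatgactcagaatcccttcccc
Hoxd12 (chr2:74674763-74675012, plus strand): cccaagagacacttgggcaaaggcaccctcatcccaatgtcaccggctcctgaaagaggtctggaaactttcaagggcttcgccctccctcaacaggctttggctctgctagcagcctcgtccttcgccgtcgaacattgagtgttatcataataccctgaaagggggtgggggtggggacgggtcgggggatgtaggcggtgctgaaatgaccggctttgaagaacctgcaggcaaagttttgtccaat

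The lists differed in length, and the WT day 5 library stood apart. Peaks covered 197.3 Mb in KO day 5, 162.5 Mb in WT day 5, 190.3 Mb in KO day 0 and 168.8 Mb in WT day 0, with median peak widths between 873 and 882 bp. Of 4 Y-linked genes, 3 had a peak at the start in WT day 5 (Kdm5d had none) and none had one in the other 3 libraries, with summed coverage around them of 2.6 kb in WT day 5 and 0 kb elsewhere. Start peaks at pluripotency genes were listed for 8, 7, 8 and 8 of 8 genes in KO day 5, WT day 5, KO day 0 and WT day 0, with Pou5f1 lacking one in WT day 5. Neural progenitor genes had them for 10, 10, 10 and 9 of 10 genes, with Six3 lacking one in WT day 0. Fibroblast and feeder markers had them for 9, 10, 8 and 7 of 10 genes in that library order. Prrx1 was at 0 in all but WT day 5, where only 12 bp were covered. Lum was at 0 in both day 0 libraries and Col3a1 in WT day 0. Summed coverage at the fibroblast loci was 33.0, 33.0, 39.0 and 31.3 kb. The part of these differences in the Hox results was not tested. Cdc14a had no peak at its start in any library and Cdc14b had one in all 4, and since the labels do not place the deletion this checks no genotype.

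Peaks were dense over the Hox clusters in every library, before and after neural differentiation. Together the windows, 885.0 kb in all, were covered over 20.9% of their bases in KO day 5, 17.9% in WT day 5, 19.6% in KO day 0 and 19.9% in WT day 0. The whole genome was covered over 7.42%, 6.11%, 7.16% and 6.35% in the same order, which made the Hox windows 2.81, 2.92, 2.73 and 3.13 times as densely covered as the genome. Hox peaks were not wider, with medians of 867, 857, 854 and 857.5 bp, and the peaks themselves were more closely spaced than across the genome. The map of listed peaks shows that most stand at the same place in all libraries.

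**Figure D1:**
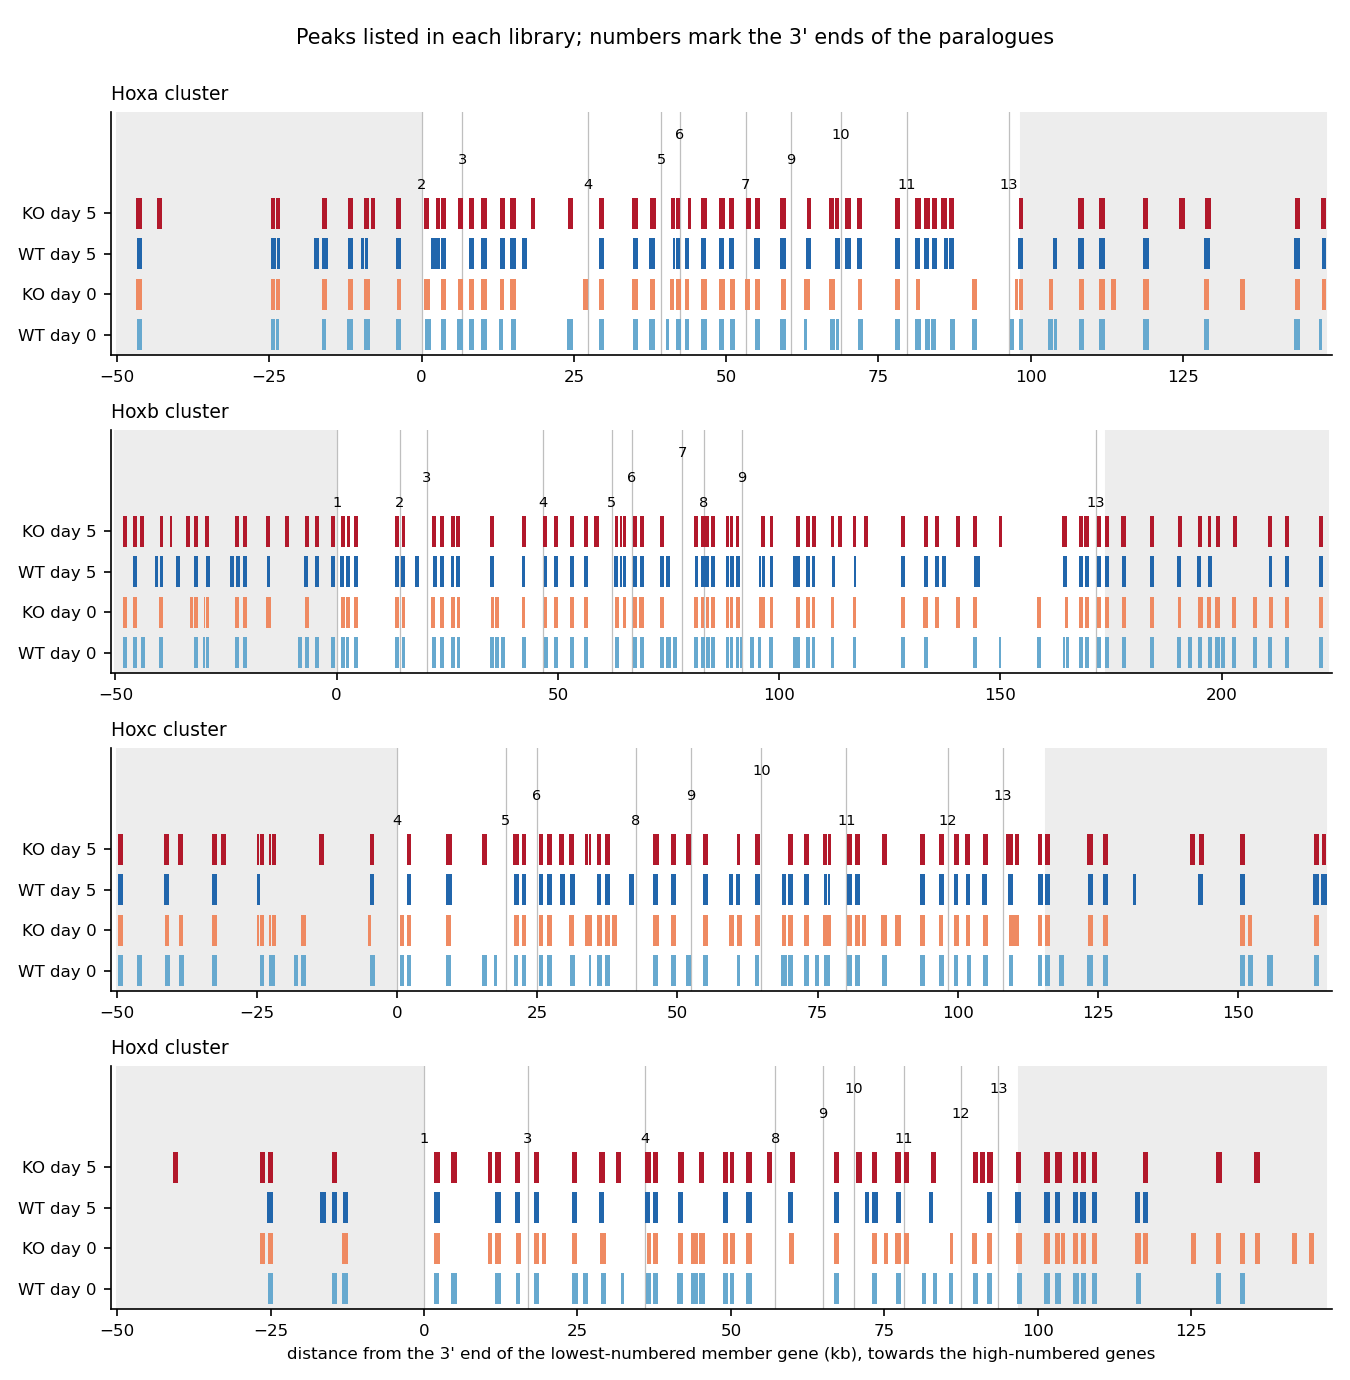
Peaks of the Hoxa, Hoxb, Hoxc and Hoxd windows in each library, against the distance in kb from the 3' end of the lowest-numbered member. Grey lines mark the 3' ends of the numbered paralogues and grey areas the 50 kb flanks; most peaks line up in all 4 libraries, and the stretch above Hoxa11 is bare in KO day 0 where the other libraries list peaks.

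Between the outermost gene ends, without flanks, Hoxa was covered over 28.0% in KO day 5, 24.2% in WT day 5, 22.9% in KO day 0 and 25.4% in WT day 0. Hoxb varied least, with 23.9%, 22.9%, 22.4% and 23.5%, and Hoxc had 24.8%, 22.7%, 26.7% and 24.5% in the same order. Hoxd had 24.4%, 16.2%, 21.8% and 21.5%. WT day 5 therefore had the lowest value at Hoxc and Hoxd, and KO day 0 the lowest at Hoxa and Hoxb. Per paralogue band, pooled over clusters, central genes (groups 5 to 8) had the highest coverage in every library, at 32.0%, 30.1%, 30.7% and 29.5%. Anterior genes (groups 1 to 4) had 23.9%, 19.1%, 22.0% and 24.1%, and posterior genes (groups 9 to 13) had 23.0%, 20.5%, 21.4% and 21.0%. Hoxd went the other way, its 1 central member, Hoxd8, having 10.6%, 9.58%, 9.66% and 0%. The 50 kb flanks had 15.8%, 13.1%, 15.0% and 15.1%, below each pooled band and above the genome.

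**Figure D2:**
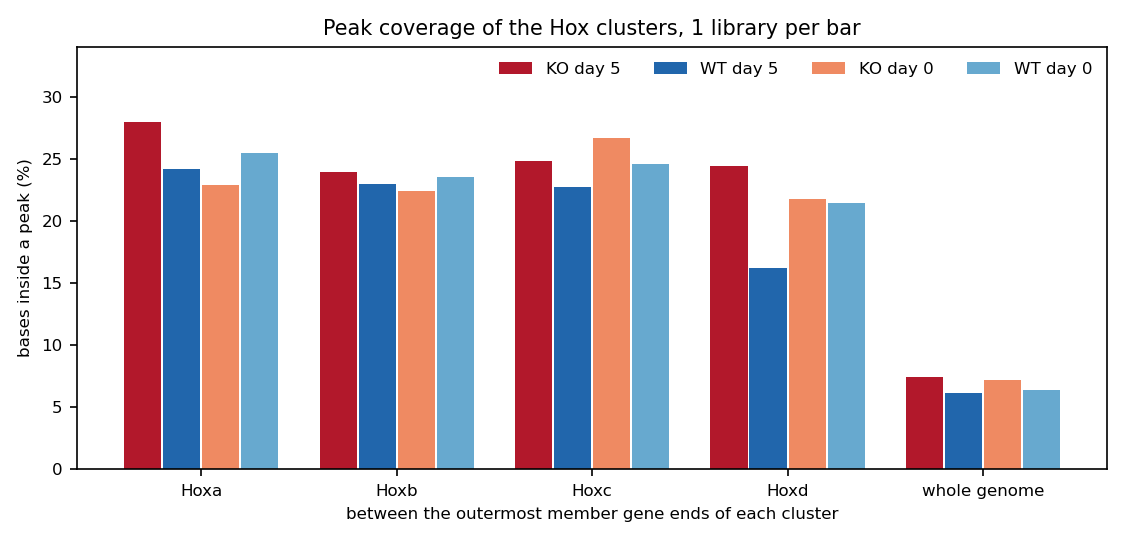
Percent of bases inside a peak between the outermost member gene ends of each cluster and over the whole genome, 1 bar per library. Every Hox bar exceeds every genome bar, and WT day 5 is lowest at Hoxd with 16.2%.

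Coverage ratios of single clusters between libraries, beyond those of the whole lists, lay between -0.31 and 0.15. Coverage was compared as a log2 ratio after adding 500 bp and subtracting the ratio over the genome, so that 0 means a change like that of the whole list. For all windows together the day 5 over day 0 ratio was 0.04 in KO and -0.10 in WT, and the KO over WT ratio was -0.06 at day 5 and -0.19 at day 0. Single clusters ranged for day 5 over day 0 in KO between -0.10 (Hoxd) and 0.15 (Hoxa), and in WT between -0.20 (Hoxd) and 0.06 (Hoxa). KO over WT lay between -0.15 (Hoxb) and 0.14 (Hoxd) at day 5, and between -0.31 (Hoxb) and 0.04 (Hoxd) at day 0. Without the subtraction, KO over WT at day 5 was above 0 in every cluster, and for all windows together it was 0.22. At day 0 it was -0.02 for all windows together, -0.14 at Hoxb and 0.21 at Hoxd, where the ratio over the genome was 0.17. In each of these comparisons the share of a cluster's peaks that fell to the library named first had an exact 95% binomial interval that included the share over the genome. Such intervals cover counting error only.

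Gene starts carried peaks at most members in every library. A peak within 1 kb of the start was listed for 35 of 38 members in KO day 5, 34 in WT day 5, 35 in KO day 0 and 34 in WT day 0, and 31 members had it in all 4. Among 21887 protein-coding genes 69% had a start peak in all 4. For 22 members the start came from the RefSeq promoter table, and for the other 16 the gene end with more covered bases stood in for it. Of the 22, 17 had a start peak in all 4 libraries, against 68.3% of the 17492 genes with a start in that table. Of the 16, 14 had one in all 4, but an end chosen by its coverage favours a peak. Hoxa9, a posterior gene with a central place in leukaemia, and Hoxb3, a hindbrain gene, had none in any library. At Hoxa9 a region inside the gene, chr6:52225166-52226330, was listed in all 4 libraries and ends just outside the 1 kb window. Its coverage was 699, 735, 901 and 389 bp in KO day 5, WT day 5, KO day 0 and WT day 0, so the 0 bp depends on the window. Hoxb3 is without a start in the promoter table, and both ends of its long gene model had 0 bp. Regions listed in all 4 libraries lie inside that model, such as chr11:96325518-96326445, so an inner start cannot be judged here. Within single clusters, the highest mean coverage within 1 kb of the start was at Hoxa11, at Hoxc13, a hair and nail regulator with 1256, 1323, 1282 and 1280 bp in KO day 5, WT day 5, KO day 0 and WT day 0, and at Hoxd3, a neck vertebra gene with 916, 925, 945 and 933 bp. The lowest were the 0 bp of Hoxa9 and Hoxb3, Hoxc6 with 734, 673, 706 and 703 bp, and Hoxd11. At Hoxb the highest value, 1396, 1356, 1350 and 1335 bp, was at the end used for Hoxb2, a hindbrain gene, which was chosen for its coverage and is the downstream end on the strand of the cluster. The ends used for Hoxb6 and Hoxc6 are downstream ends too, and with upstream ends for all such members 29 of 38 had a start peak in all 4 libraries.

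**Figure D3:**
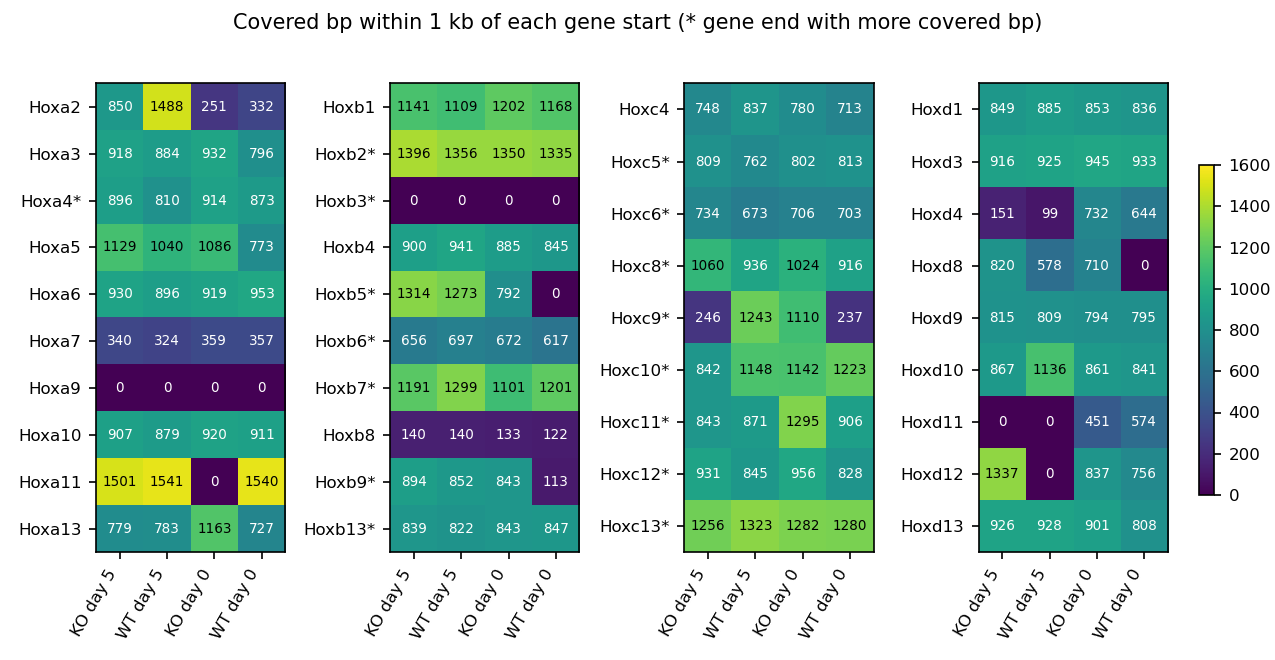
Covered bp within 1 kb of the start of each of the 38 members, in columns KO day 5, WT day 5, KO day 0 and WT day 0, with members marked * placed at the gene end with more covered bp. Zeros in part of a row mark Hoxa11, Hoxb5, Hoxd8, Hoxd11 and Hoxd12.

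By paralogue group, the starts of groups 1, 4, 7, 10 and 13 had a peak in all libraries at every member. So did those of groups 2 and 6 as placed here, but on the upstream ends of Hoxb2 and Hoxb6 peaks covered 0, 0, 0 and 0 bp and 0, 818, 0 and 1390 bp in KO day 5, WT day 5, KO day 0 and WT day 0. Group 5 varied through Hoxb5, group 8 through Hoxd8, group 11 through Hoxa11 and Hoxd11, and group 12 through Hoxd12. Hoxa11 lacked a start peak in KO day 0, with 1501, 1541, 0 and 1540 bp in KO day 5, WT day 5, KO day 0 and WT day 0. Hoxb5, which patterns the cervical and vagal level, had 1314, 1273, 792 and 0 bp, and Hoxd8, a central gene of the trunk, had 820, 578, 710 and 0 bp, so that for both the empty library was WT day 0. Hoxd12, a distal limb gene, had 1337, 0, 837 and 756 bp and was empty in WT day 5. Hoxd11 had 0, 0, 451 and 574 bp, and was empty in both day 5 libraries. Its other annotated start, 74682323 on chromosome 2, had 743, 700, 0 and 672 bp and was empty in KO day 0 instead.

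These counts were close to those over all genes. Comparing KO with WT at day 5, 1 member had a start peak in KO alone (Hoxd12, 2.63% of members against 3.49% of all genes) and 0 in WT alone (1.59% of all genes). At day 0, Hoxb5 and Hoxd8 had a start peak in KO alone (5.26% against 2.34%) and Hoxa11 in WT alone (2.63% against 1.32%). Comparing day 5 with day 0, KO gained Hoxa11 (background 2.56%) and lost Hoxd11 (2.02%), and WT gained Hoxb5 and Hoxd8 (2.56%) and lost Hoxd11 and Hoxd12 (2.89%). With 1 or 2 members a direction, none of these shares sets the clusters apart from other genes. Hoxd11 was the member lost at day 5 in both genotypes under this rule, and no member gained a start peak in both. With windows of 500 bp, Hoxa2 was gained in both, and Hoxd4 was lost in both along with Hoxd11. With lists cut to equal numbers of the widest peaks, Hoxd8 was gained and Hoxd12 lost in both. With 2500 bp Hoxd11 was lost in WT and not in KO.

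Some starts shifted with the day in both genotypes without a loss of every peak. Hoxa2 had 850 and 1488 bp within 1 kb of the start in KO and WT at day 5, against 251 and 332 bp in KO and WT at day 0. A region at chr6:52164813-52165428, across the Hoxa2 start, was listed in both day 5 libraries and neither day 0 library, and it covered 250 bases of the Hoxa2 stretch printed above in KO day 5 and 234 in WT day 5. Hoxa2 was the only 1 of 22 members whose stretch before the start was covered in both day 5 libraries and neither day 0 library, a pattern of 0.909% of all genes. Hoxd4, a hindbrain and neck gene, went the other way, with 151 and 99 bp within 1 kb of the start in KO and WT at day 5, against 732 and 644 bp at day 0. A region at chr2:74720495-74721621, which also lies in the long gene model of Hoxd3, was listed in both day 0 libraries alone and ends upstream of the Hoxd4 stretch. Hoxd11 and Hoxb4 were the 2 members whose stretch before the start was covered in both day 0 libraries and neither day 5 library (0.703% of all genes). At Hoxd11 peaks covered 0 and 0 bases of it in KO and WT at day 5, against 180 and 250 at day 0. At Hoxb4, a neck and blood stem cell gene, they covered 0 and 0 against 78 and 70. The Hoxb4 start itself did not shift, since the region across it, chr11:96318189-96319213, was listed in all 4 libraries. Within 1 kb of that start, peaks covered 900, 941, 885 and 845 bp in KO day 5, WT day 5, KO day 0 and WT day 0.

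Between Hoxa9 and Hoxa13 the KO day 0 library lacked peaks that the other libraries listed. Hoxa10 and Hoxa11 are posterior genes of the limb and the reproductive tract. Each member was given a territory that runs from its 3' end upstream to the 3' end of the next member, so that no base is counted for neighbours together. The Hoxa11 territory (chr6:52242105-52258852) held 4436, 4102, 1435 and 4156 covered bp in KO day 5, WT day 5, KO day 0 and WT day 0, in 5, 5, 2 and 5 peaks. KO day 0 stood well below the other 3, which lay close together. Its log2 ratio was -1.44 for KO over WT at day 0 and 1.30 for day 5 over day 0 in KO, against -0.18 for KO over WT at day 5 and 0.04 for day 5 over day 0 in WT. Pooled over posterior Hoxa genes, coverage was 9.66, 8.75, 5.71 and 8.83 kb. The anterior and central Hoxa genes did not share the gap, with 10.9, 8.97, 9.57 and 9.83 kb and 6.95, 6.07, 7.25 and 6.39 kb, nor did the Hoxa flanks, with 14.05, 12.8, 13.6 and 11.5 kb.

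Region by region, peaks were joined across libraries where they overlapped by at least 1 bp. Of the regions between Hoxa9 and Hoxa13, 4 were listed in KO day 5, WT day 5 and WT day 0 and not in KO day 0. They were chr6:52230283-52231073, just downstream of Hoxa10, chr6:52244859-52245850 across the Hoxa11 start, chr6:52246047-52247031 just upstream of it, and chr6:52248949-52250069 further upstream. The regions at chr6:52231945-52232901, inside Hoxa10, and chr6:52247750-52248864, upstream of Hoxa11, were listed in both day 5 libraries and in neither day 0 library. A region at chr6:52252732-52253556 had the opposite pattern, with 0 and 0 bp in KO and WT at day 5 against 765 and 814 bp at day 0. Peaks at the Hoxa10 start (907, 879, 920 and 911 bp within 1 kb in KO day 5, WT day 5, KO day 0 and WT day 0) and inside Hoxa11 at chr6:52243460-52244337 were listed in all 4 libraries. The 250 bases before the Hoxa11 start fall mostly in the narrow gap between the regions on its sides, with 40, 0, 0 and 33 bases inside a peak. Regions missing from KO day 0 alone were 4 of 61 at Hoxa and 8 of 277 over all windows (2.89%, exact 95% interval 1.25 to 5.61%), against 1.8% genome-wide.

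The same stretch gave the members past the set fold in windows of 10 kb on each side of the start. Each such locus ratio is a log2 ratio of covered bp minus that of the median gene, called at 1 or -1. Hoxa10 had 7201, 6946, 2367 and 5246 bp in KO day 5, WT day 5, KO day 0 and WT day 0. Its ratio was -1.02 for KO over WT at day 0, the 1 member called lower there (1.57% of all genes), and 1.44 for day 5 over day 0 in KO. Hoxa11, whose window overlaps that of Hoxa10, had 5343, 4981, 2355 and 5067 bp and was called at 1.05 for day 5 over day 0 in KO, so that 2 of 38 members were called higher (4.14% of all genes). With windows of 50 kb these calls ended, at -0.22 and 0.24 for Hoxa10 and 0.25 for Hoxa11, and with a pseudocount of 2000 bp the Hoxa10 value for KO over WT was -0.75 and the Hoxa11 value 0.76. No member was called in the other directions, where the background was 6.61% higher and 2.06% lower for KO over WT at day 5, 3.41% higher for KO over WT at day 0, 3.08% lower for day 5 over day 0 in KO, and 4.06% higher and 5.45% lower for day 5 over day 0 in WT. The median member had 0.05 and -0.07 for KO over WT at day 5 and day 0, and 0.10 and 0.06 for day 5 over day 0 in KO and WT, where the median gene is 0 by construction. The ratio of the median gene that was subtracted for KO over WT at day 5 was 0.14, lower than the genome-wide ratio of 0.28, and subtracting the genome-wide ratio turns the sign of the member median to -0.10.

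**Figure D4:**
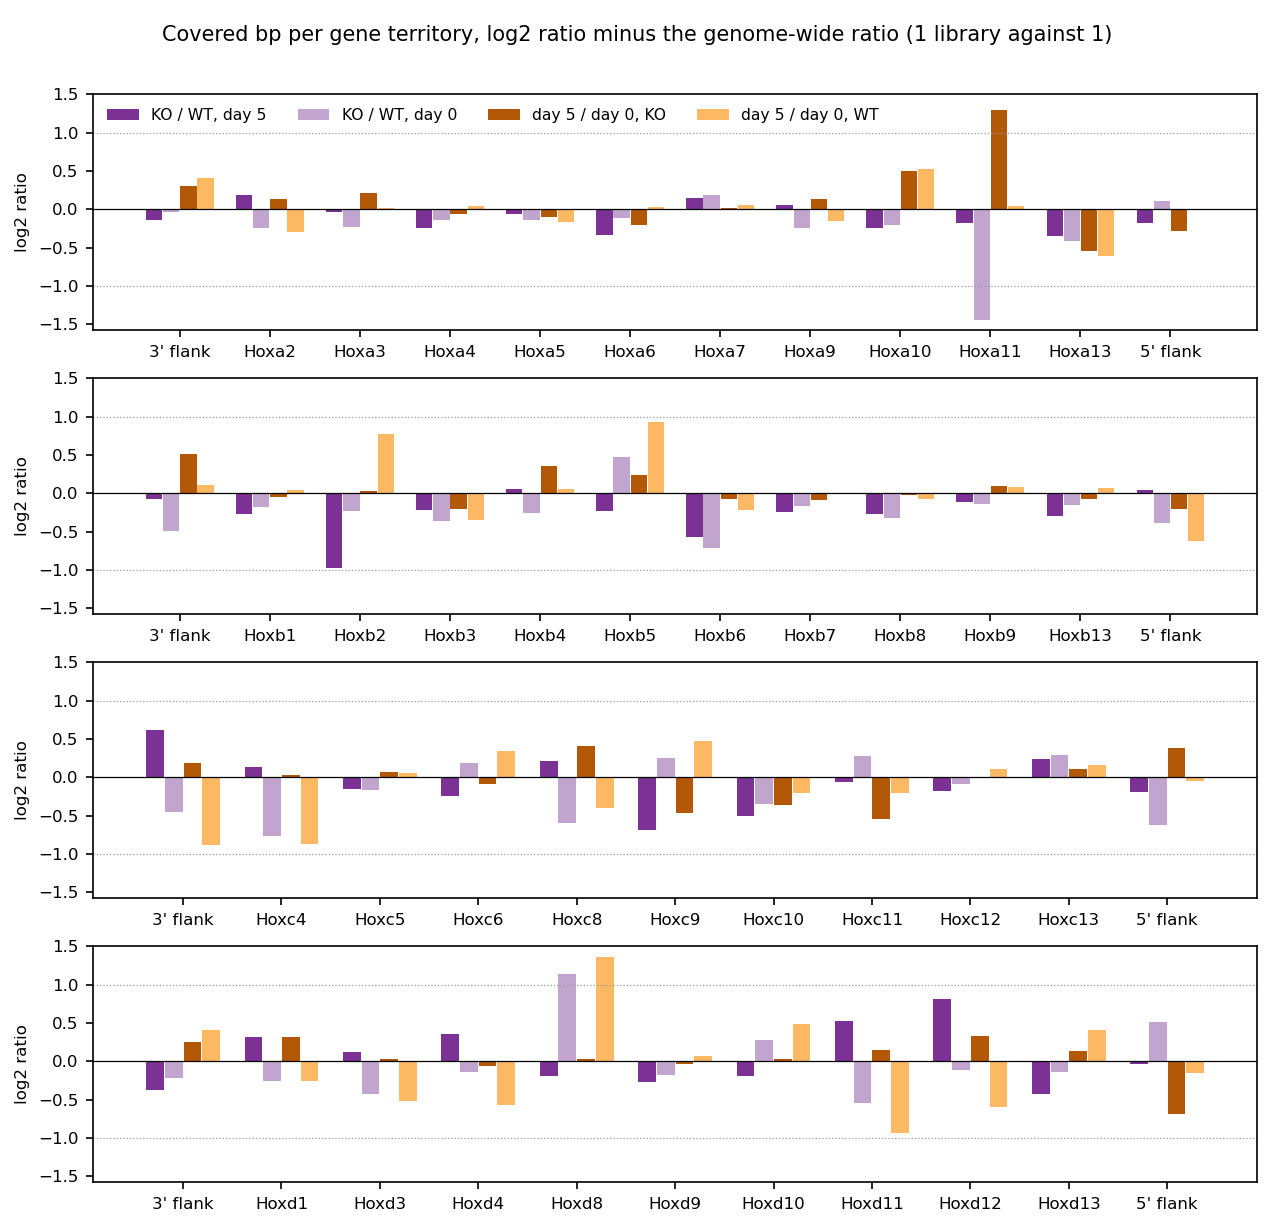
Log2 ratio of covered bp in each member's territory, minus the genome-wide ratio, for KO over WT at day 5 and day 0 and day 5 over day 0 in KO and WT. Hoxa11 stands apart at -1.44 (KO over WT, day 0) and 1.30 (day 5 over day 0, KO), and Hoxd8 at 1.14 (KO over WT, day 0) and 1.37 (day 5 over day 0, WT).

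At Hoxd the low library was WT day 5 for the cluster as a whole, though not in every territory. Anterior Hoxd genes had 14.8, 9.54, 13.6 and 14.4 kb covered in KO day 5, WT day 5, KO day 0 and WT day 0, and posterior Hoxd genes 7.98, 5.45, 6.74 and 6.37 kb. The territory of Hoxd12 held 2379, 848, 1707 and 1623 bp, and that of Hoxd11 1608, 700, 1342 and 1876 bp. Hoxd4, whose territory reaches up to Hoxd8, held 6978, 4299, 7053 and 6908 bp. WT day 5 was the lowest library at all of these. It was not the lowest in the territories of Hoxd9, with 815, 809, 794 and 795 bp, and Hoxd10, with 2651, 2455, 2488 and 1688 bp. Nor was it the lowest in that of Hoxd13, with 529, 634, 406 and 386 bp. Hoxd8 was different again, with 820, 740, 746 and 0 bp, and the missing region (chr2:74704764-74705777) begins downstream of the stretch printed for Hoxd8. In locus ratios, Hoxd11 was the highest member for KO over WT at day 5 (0.76) and the lowest for day 5 over day 0 in WT (-0.61). Hoxd9, a forelimb gene, was the highest for KO over WT at day 0 (0.64) and for day 5 over day 0 in WT (0.77), with 3968, 3692, 3744 and 2185 bp. Hoxa13, the terminal gene of Hoxa, was the lowest for KO over WT at day 5 (-0.64) and for day 5 over day 0 in KO (-0.94). None of these passed the set fold. WT day 5 is also the shortest list, and regions missing from it alone were 15 of 277 in the Hox windows (5.42%) against 8.94% genome-wide.

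Hox regions were shared between libraries more than regions of the genome at large. Of 277 joined regions, 146 (52.7%, exact 95% interval 46.6 to 58.7%) were listed in all 4 libraries, against 33.8% of 328597 regions genome-wide. Regions listed in 1 library were 60 (21.7%, 17.0 to 27.0%), against 32% genome-wide. Of those, 17 were in KO day 5 (6.14% of the 277 regions, against 10% genome-wide) and 13 in WT day 5 (4.69%, against 9.16%). A further 12 were in KO day 0 (4.33%, against 7.96%) and 18 in WT day 0 (6.498%, against 4.87%). Regions in all but 1 library were 5 for KO day 5 (1.81%, against 1.71% genome-wide) and 7 for WT day 0 (2.53%, against 3.14%). The 15 for WT day 5 and 8 for KO day 0 were given above. Joining peaks can widen a region as more libraries list it, so classes of width cannot separate width from sharing. By class, 47.7% of Hox regions and 28.2% of all regions below 1000 bp were in all 4. From 1000 to 1500 bp the shares were 70% and 51.7%. Neighbouring regions are not independent, so the intervals are a description of counting error. Regions in all 4 were 73 of 124 in gene bodies, 30 of 57 between genes and 43 of 96 in the flanks. Within 1 kb of the 22 starts of the promoter table, they were 20 of 33. By cluster the regions in all 4 were 33 of 61 at Hoxa, 55 of 94 at Hoxb, 36 of 67 at Hoxc and 22 of 55 at Hoxd, the lowest share. The widest region was chr6:52265333-52266808 at Hoxa (1476 bp, beyond Hoxa13, in all but KO day 5), chr11:96400799-96402246 at Hoxb (1448 bp, in the flank beyond Hoxb1, in KO at both days), chr15:102959484-102960854 at Hoxc (1371 bp, between genes) and chr2:74660649-74662359 at Hoxd (1711 bp, beyond Hoxd13), the last 2 in all libraries.

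**Figure D5:**
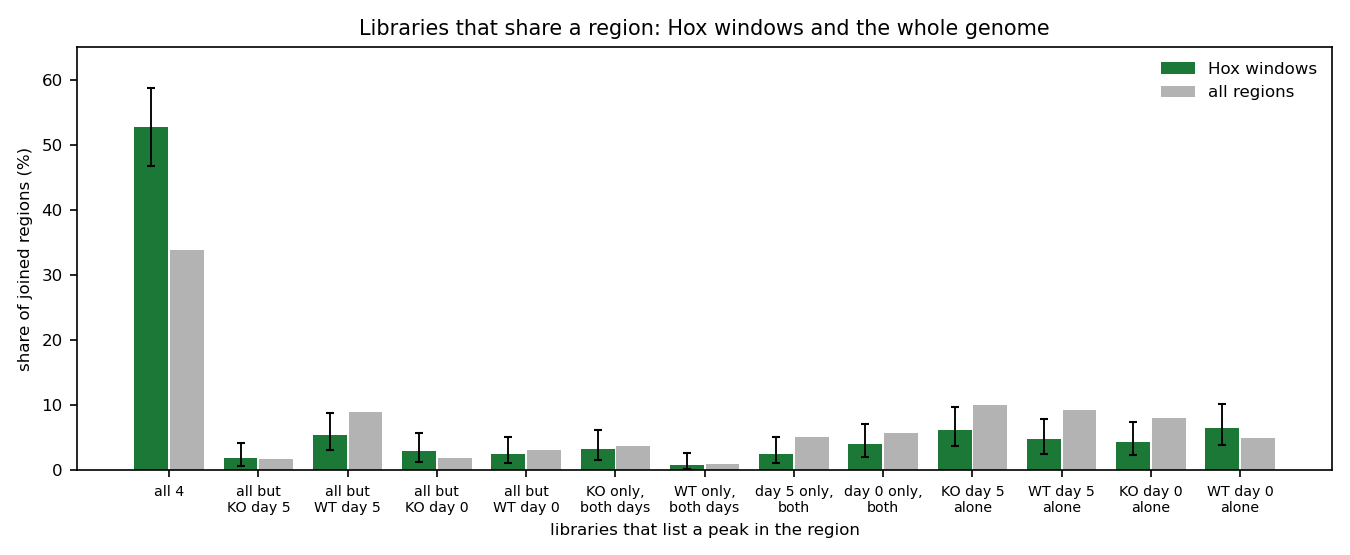
Share of joined regions by the libraries that list them, for 277 regions of the Hox windows (with exact 95% binomial intervals) and 328597 regions of the whole genome. The Hox share is higher for regions in all 4 libraries (52.7% against 33.8%), and most other patterns are rarer or overlap the genome's share.

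Regions listed in KO libraries alone, at either day or both, were 38 (13.7%, against 21.7% genome-wide), and those in WT libraries alone 33 (11.9%, against 14.9%). Few were tied to a genotype on both days. KO alone listed 9 regions at both days (3.25%, against 3.68% genome-wide) and WT alone listed 2 (0.722%, against 0.854%). Among the KO ones, 4 overlapped gene bodies. They lay at the 3' end of Hoxa7, a trunk gene, with 783, 0, 728 and 0 bp within 1 kb of that end in KO day 5, WT day 5, KO day 0 and WT day 0, in Hoxc13, in Hoxc6, a thoracic gene, and at the border of Hoxd10 and Hoxd11. The start of Hoxa7 itself did not differ in this way, with 340, 324, 359 and 357 bp. The others lay between genes or in flanks of Hoxb and Hoxd. Both WT regions were at Hoxb, at chr11:96292784-96293728 on the upstream end of the long Hoxb6 gene model (0, 818, 0 and 945 bp) and beside Mir196a-1. These counts did not exceed the genome's share.

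Regions tied to the day in both genotypes were also no more frequent than elsewhere. Those in both day 5 libraries alone numbered 7 (2.53%, against 5.01% genome-wide), and those in both day 0 libraries alone 11 (3.97%, against 5.73%). At day 5 they were at Hoxa2, Hoxa10, upstream of Hoxa11, at Hoxb5, Hoxc6 and in the Hoxc flank beyond Hoxc13. The Hoxb5 region, chr11:96303720-96304301, had 537 and 582 bp in KO and WT at day 5 and 0 and 0 bp at day 0. The day 0 regions were at Hoxb3, Hoxc4, Hoxd4, Hoxd11, between genes near Hoxa11 and Hoxb9, and in the flanks of Hoxb, Hoxc and Hoxd. Those of day 5 lay at anterior, central and posterior paralogues, and those of day 0 at anterior and posterior ones or in flanks. In all, 33 of 124 regions that overlap member gene bodies were listed in 1 library, 1 genotype or 1 day alone, 10 at Hoxa, 6 at Hoxb, 6 at Hoxc and 11 at Hoxd. That is 26.6%, against 45.5% of the 175200 regions in bodies of protein-coding genes.

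The microRNA genes inside the clusters are shown by their mature 5p strand, because peaks over the miR-196 genes differed between libraries (RefSeq, GRCm38.p6). Capitals mark the seed, bases 2 to 8, which is shared within the miR-196 pair and within the miR-10 pair.
miR-196b-5p (Hoxa): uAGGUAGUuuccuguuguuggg
miR-196a-5p (Hoxb and Hoxc): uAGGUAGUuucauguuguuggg
miR-10a-5p (Hoxb): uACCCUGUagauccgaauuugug
miR-10b-5p (Hoxd): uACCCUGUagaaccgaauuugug

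Mir196b (chr6:52230081-52230165), between Hoxa9 and Hoxa10, lies under a region listed in KO day 5, KO day 0 and WT day 0. Within 1 kb of the hairpin peaks covered 1357, 791, 840 and 1457 bp in KO day 5, WT day 5, KO day 0 and WT day 0. Mir196a-1 (chr11:96265164-96265265), upstream of Hoxb9, had 193, 896, 252 and 720 bp, lower in KO than in WT on both days, and the region beside it was listed in WT alone. Only the WT day 5 peak reached the hairpin, over 36 bp. Mir196a-2 in Hoxc carried no peak over the hairpin, with 663, 645, 666 and 672 bp nearby, evenly in all libraries. Mir10a upstream of Hoxb4 had 0, 2, 86 and 78 bp within 1 kb, and Mir10b in the territory of Hoxd4 161, 164, 146 and 158 bp, with no peak over either hairpin.

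In base composition the 22 stretches before member starts resembled those of other genes. The median GC content was 56.8% for members and 55.2% for all 17492 genes with a stretch, and the median number of CpG dinucleotides was 12 and 10. Peaks overlapped the stretch at 15, 13, 15 and 16 of 22 members in KO day 5, WT day 5, KO day 0 and WT day 0, against 67.3%, 66.3%, 66.6% and 65.9% of all genes. The stretch was overlapped in all 4 libraries at 12 members (62.1% of all genes) and in none at 5 (29% of all genes), which were Hoxa7, Hoxa9, Hoxb8, Hoxd4 and Hoxd8. Motifs were searched on both strands with overlaps counted. The retinoic acid receptor half-site AGGTCA matched at 6 of 22 members (27.3%, against 12.5% of all genes), namely Hoxb4, Hoxc4, Hoxd3, Hoxd4, Hoxd8 and Hoxd10. The CDX word TTTATNG matched at 2 (9.09% against 9.38%), once in Hoxd4 and 3 times in Hoxb8, and the PBX-HOX word TGATTNAT at 1 (Hoxa2, 4.55% against 2.70%). A 12-letter core of the CTCF motif (1.99% of all genes) and the octamer ATGCAAAT (1.62%) matched at no member. In the sequences printed above the capitals are the PBX-HOX match of Hoxa2, the half-site and CDX matches of Hoxd4 and the half-site of Hoxd8. A match is a string of letters and does not show a bound site.

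Genes that act on the Hox clusters or lie beside them had a start peak in almost every library, and few had locus ratios past the set fold. All 9 Polycomb repressor genes and all 7 genes that neighbour the clusters had a start peak in every library. The 10 upstream activators of Hox clusters all had a start peak except Cdx4 in KO day 5. In locus ratios, Rarb, a retinoic acid receptor among the 10 activators, was called higher for day 5 over day 0 in WT (1.18). Of all genes 4.06% had that call. Rarb had 3593, 4202, 2264 and 1772 bp in KO day 5, WT day 5, KO day 0 and WT day 0. Ezh2, the methyltransferase of a Polycomb complex, was called lower for day 5 over day 0 in WT (-1.10), a call of 5.45% of all genes. It had 1544, 839, 1771 and 2631 bp in the same order of libraries. No other gene of these 3 lists was called. Short of the fold, Rara had -0.96 for KO over WT at day 5. Mtx2, a neighbour, had 0.78 for day 5 over day 0 in WT.

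The Iroquois clusters, which also hold homeobox genes in rows and are Polycomb targets in ESCs, had much longer windows, 1411 kb for IrxA and 982 kb for IrxB. The IrxA window was covered over 7.58%, 5.51%, 5.55% and 4.82% in KO day 5, WT day 5, KO day 0 and WT day 0, and the IrxB window over 12.5%, 9.71%, 9.198% and 9.73%. Regions in all 4 libraries were 44 of 165 at IrxA (26.7%, exact 95% interval 20.1 to 34.1%) and 66 of 179 at IrxB (36.9%, 29.8 to 44.4%), intervals that lie below that of the Hox windows. Within 10 kb of the start Irx genes and Hox members overlapped in coverage, with 5 of the 6 Irx genes between 4334 and 7842 bp in KO day 5 and WT day 5, and a median Hox member at 5503 and 4720.5 bp. For day 5 over day 0 the log2 coverage ratio was 0.39 in KO and 0.25 in WT at IrxA, and 0.39 and 0.05 at IrxB, where the Hox windows had 0.04 and -0.10.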

How the data were processed

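Single-nucleus ATAC-seq was done with the 10x Multiome kit, and the peak lists were made with cellranger-arc 2.0.0 on an mm10 reference, per the file headers. Scanpy 1.7.2 is a further tool listed, per the submitters' processing notes. The deposited lists hold a chromosome, a start and an end (other values: positions in bp, no score, count or signal), 1 list per library, called in each library separately. Peak lists without counts give no depth, and a region just above the calling threshold in 1 library can be missing from another.

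Starts were counted from 0 in the files and are given from 1. Gene ends, starts, promoters and microRNAs came from RefSeq tables of GRCm38.p6, the build called mm10, with 1 start window per gene, and no genome sequence or exon annotation was used. Gene starts were taken from the promoter table for 22 of 38 members, and otherwise from the gene end with more covered bases. Computed here with Python 3.11.15, numpy 2.4.6 and scipy 1.17.1 were covered bp, peaks within 1 kb of a start, log2 ratios with a pseudocount of 500 bp (locus windows of 10 kb each side, called at 1 or -1), regions joined at 1 bp of overlap, and exact Clopper-Pearson intervals at 95%. Covered bp, log2 ratios and the joining of regions were checked on the WT day 0 list and a copy with peaks removed around picked genes. Start calls and intervals were not checked in this way. Samples were grouped by the labels, with 1 library in each of 4 groups, so no test of a difference was made.

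The members and gene lists were chosen with earlier results of these data known. Named genes are those whose start peak differs between libraries, the highest and lowest start coverage in each cluster, the highest and lowest locus ratios, regions in 1 library, genotype or day, and the widest region of each cluster. Territories, bands of paralogues, the regions missing from 1 library, microRNAs and the stretches before starts were added after the values were seen, as were the genes described for them. Alternatives were equal numbers of the widest peaks, other windows, flanks, pseudocounts, scalings, minimum coverage, the other gene end and a reciprocal overlap of 50%. The list of Hox cofactor genes is not reported here.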

Additional observations from a re-analysis of the deposited data

Results flagged for a closer look

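Coverage of all Hox windows together was on opposite sides of 0 in the 2 genotypes when day 5 was set over day 0, with a log2 ratio (minus the genome's) of 0.039 in KO and -0.096 in WT. Coverage of the Hoxb window did the same, with 0.089 in KO and -0.072 in WT. With 1 library per genotype and day the difference between genotypes was not tested, and without flanks the Hoxb value in WT is 0.02.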

How the results depend on the processing

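No paired analysis was possible because each genotype and day has 1 library, and no library could be left out for the same reason. Of 136 main values and counts recomputed under alternatives, 99 stayed near the reported one and 37 moved, all of them counts of members. Those that stayed near include KO over WT at day 5 for all windows, which went from -0.06 to 0.22 without the subtraction. The half-width of its counting interval is 0.29, so staying near is a loose label for cluster ratios. Of 130 further values, 124 stayed near and 6 were weaker. No called ratio changed sign. The share of Hox regions in all 4 libraries was 49.3% with a reciprocal overlap of 50%, 46.7% with equal numbers of the widest peaks and 56.9% without flanks, against 32.3%, 30.7% and 33.8% genome-wide. Of 38 members, 31 had a start peak in all 4 libraries, and 25 to 36 under the alternatives.

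Start peak counts depend on the window and on the lists. Counts are of 38 members, and brackets hold the share of all genes under the same alternative. With equal numbers of the widest peaks, members with a start peak in KO alone were 0 at day 5 (2.86%) and 1 at day 0 (2.07%). In WT alone they were 6 at day 5 (6.65%) and 3 at day 0 (4.61%). In KO, 2 were at day 5 alone (3.69%) and 5 at day 0 alone (4.32%), and in WT 1 was at day 0 alone (2.75%). With windows of 500 bp they were 1 in WT alone at day 5 (1.73%) and 4 in KO alone at day 0 (2.28%). At day 5, KO gained 2 (2.64%) and lost 3 (2.08%), and WT gained 5 (2.72%). With 2500 bp they were 1 (KO alone) and 0 (WT alone) at day 0, 0 gained and 0 lost in KO, and 1 gained and 1 lost in WT. With at least 250 bp they were 1 in WT alone at day 5 (1.57%), 4 in KO alone at day 0 (2.29%), 3 lost in KO (1.97%) and 4 gained in WT (2.60%). With the gene end of more coverage they were 2 in KO alone at day 5 (4.55%) and 2 in WT alone at day 0 (1.51%). With the upstream end by cluster strand, an alternative added after seeing the data, 1 member was in WT alone at day 5 (1.59%). At day 0 there were 2 (1.32%), Hoxb6 being the added one on both days. Hoxa11 lost its KO day 0 gap with 2500 bp.

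For locus ratios, members called lower for KO over WT were 2 at day 5 and 3 at day 0 with equal lists, and at day 0 0 with 50 kb, 2 with a pseudocount of 100 bp, 0 with 2000 bp and 2 with the genome-wide ratio. Members called higher for day 5 over day 0 in KO were 0 with 50 kb, 1 with 2000 bp and 1 with the genome-wide ratio, and 1 was called lower with 100 bp and with the genome-wide ratio. Shares of all genes for these alternative calls are not given here. The Hoxa10 values were -0.22 (KO over WT, day 0) and 0.24 (day 5 over day 0, KO) with 50 kb, and -0.75 for KO over WT at day 0 with a pseudocount of 2000 bp. Hoxa11 in KO had 0.25 with 50 kb, 0.76 with 2000 bp and 0.98 with the genome-wide ratio. Cluster ratios close to 0 changed sign under some alternatives, such as KO over WT at day 0 at Hoxd, which was -0.15 without flanks. The cause of these shifts was not tested.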
